A study of Oryctolagus cuniculus with 134 samples.

Results

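Irradiation of the heart was compared with no irradiation in the mitral valve of rabbits that all ate the cholesterol-rich diet. The libraries were taken by the tissue and treatment in their labels, without any measured value: 7 mitral valve libraries with irradiation (IR/CHT) and 6 without (CHT), which makes 13 of the 26 mitral valve libraries and 13 of the 134 libraries of the series. The series measured gene expression by RNA sequencing in the proximal aorta and the heart valves of 27 male New Zealand White rabbits. In addition to IR/CHT and CHT, the mitral valve had 6 libraries from rabbits on chow (Ctrl) and 7 from rabbits on a lard-rich diet (Lard).

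Every IR/CHT and CHT rabbit received 0.3% cholesterol in the diet for 16 weeks, from 12 weeks of age, and vitamin D2 (ergocalciferol) in the drinking water at 25000 U per day, scaled to body weight, for the opening 15 days. After 8 weeks of diet, the IR/CHT rabbits were also given 24 Gy of X-rays in 3 fractions of 8 Gy, 48 hours apart, and tissues were collected 8 weeks later, at 28 weeks of age. Ctrl rabbits had neither cholesterol, vitamin D2 nor irradiation, and Lard rabbits had 5% lard and the same vitamin D2. The beam was aimed at the aortic valve and the thoracic aorta and not at the mitral valve itself, and the dose reaching the mitral leaflets is not given in the sources used here. A group irradiated on chow was not analysed here, so the comparison shows irradiation on top of cholesterol and vitamin D2.

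The mitral valve closes the opening between the left atrium and the left ventricle. Its leaflets hold interstitial cells, which make the collagen, proteoglycans and elastic fibres of the valve, under a layer of endothelium, with heart muscle at their base and scattered macrophages. Cholesterol feeding of rabbits is a classic way to load macrophages with lipid (foam cells), and such cells digest what they take up in lysosomes with cathepsins and acid lipase. Ionizing radiation breaks DNA, engages the p53 pathway and, over longer times, is known for inflammation and fibrosis of heart tissue.

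The CHT libraries held 13564979 to 42151854 read pairs assigned to genes, with a median of 18482426, and the IR/CHT libraries 17445791 to 19717919, with a median of 18800990. The counts were deposited in tables named plate 1 and plate 2, and the step the plates belong to is not given in the sources used here. All 6 CHT libraries were in plate 1, but 4 IR/CHT libraries were in plate 1 and 3 in plate 2. Rabbit numbers began with L28 in every IR/CHT rabbit, with L09 in every CHT and Lard rabbit and with L08 in every Ctrl rabbit. What these number series stand for is not given in the sources used here, and they cannot be told apart from irradiation. The 10 most abundant genes took 13.0% to 15.2% of the read pairs of the plate 2 IR/CHT libraries and 16.9% to 27.9% of the other 10 libraries. Markers of valve interstitial cells and fibroblasts were abundant, with 5 of 6 defining genes tested and a sum of 9941 to 15820.0 reads scaled to a common library size (CPM) in CHT and of 8205 to 21710.0 CPM in IR/CHT, as the tissue label implies. Library replicates are named here by the number of the label, for example CHT L157.

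Irradiation added 29 differentially expressed genes (DEGs) to the cholesterol diet in the mitral valve, 0.189% of the 15322 genes tested by edgeR's quasi-likelihood test. A gene counted as a DEG when its fold change exceeded 1.5 and its p, adjusted by the Benjamini-Hochberg method, was under 0.05. Of these, 8 rose (0.0522%) and 21 fell (0.137%) on IR/CHT. The genes that rose with a symbol were CYB561A3, CTSV, CSTB, the plasma cell gene JCHAIN and KLHL42, an adaptor of a ubiquitin ligase. The 20 genes that fell with a symbol had PRUNE2, ADAMTS6 and ITGA2 at the smallest p. Another 4 genes (MAGI2, FHL1, AHCY and COL14A1) had an adjusted p under 0.05 and a fold change under 1.5.

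CYB561A3, a cytochrome b561 of the lysosomal membrane, had a lowest, median and highest level of 21.3, 24.5 and 38.0 CPM in CHT and of 31.0, 67.2 and 96.0 CPM in IR/CHT. In 6 of 7 IR/CHT libraries it was above every CHT library, and the exception was L175. Its log2 fold change was 1.26 (SE 0.20, adjusted p = 0.00561). CTSV, a lysosomal cysteine protease close in sequence to cathepsin L, was at 211.7, 267.6 and 376.8 CPM in CHT and at 372.9, 534.6 and 740.5 CPM in IR/CHT. Here too 6 of 7 IR/CHT libraries were above the highest CHT library, and the log2 fold change was 0.92 (SE 0.17, adjusted p = 0.0164). Reads could be split between CTSV and close relatives in the counting, so its level is uncertain to that extent. CSTB, the cystatin B that inhibits cysteine cathepsins, was at 9.40, 16.2 and 27.5 CPM in CHT and at 15.6, 38.6 and 71.6 CPM in IR/CHT. Its log2 fold change was 1.27 (SE 0.27, adjusted p = 0.0486), again with 6 of 7 libraries above the highest CHT library.

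JCHAIN, the chain that joins IgM and IgA into polymers in plasma cells, ranged from 2.08 to 9.26 CPM in CHT with a median of 2.6, and from 5.22 to 57.1 CPM in IR/CHT with a median of 13.9. The IR/CHT libraries spread over a wide range, with 5 of 7 above the highest CHT library. The log2 fold change of 2.26 (SE 0.49, adjusted p = 0.0484) was the highest of the genes that rose. KLHL42 was between 11.5 and 19.5 CPM in CHT (median 16.9) and between 20.5 and 31.1 CPM in IR/CHT (median 27.2). It was the DEG of higher level whose groups did not overlap, with a log2 fold change of 0.68 (SE 0.13, adjusted p = 0.0237). The other 3 genes that rose had no symbol, among them ENSOCUG00000026197 with a log2 fold change of 1.45 (SE 0.32, adjusted p = 0.0492).

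PRUNE2 had the smallest p of all genes. It was at a lowest, median and highest level of 296, 504 and 692 CPM in CHT and of 191.7, 219.0 and 271.2 CPM in IR/CHT, without overlap, and its log2 fold change was -1.13 (SE 0.16, adjusted p = 0.00178). ADAMTS6, a secreted metalloprotease, was at 33.2, 58.9 and 73.2 CPM in CHT and at 22.1, 26.5 and 28.8 CPM in IR/CHT. All 7 IR/CHT libraries lay below the lowest CHT library, with a log2 fold change of -1.16 (SE 0.17, adjusted p = 0.00178). ITGA2, the α2 subunit of a collagen-binding integrin, was at 131, 224 and 305 CPM in CHT and at 47.9, 94.0 and 116 CPM in IR/CHT. It fell by 1.26 on the log2 scale (SE 0.20, adjusted p = 0.00561), also without overlap.

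ABI3BP, a matrix protein, was at 556, 811 and 1213 CPM in CHT and at 266.4, 451.6 and 550.3 CPM in IR/CHT, with a log2 fold change of -0.97 (SE 0.18, adjusted p = 0.0194). The highest IR/CHT and the lowest CHT library nearly touched. ANK2, the ankyrin that anchors ion channels and transporters, was at 365, 379 and 456 CPM in CHT and at 198.6, 217.7 and 320.2 CPM in IR/CHT, with a log2 fold change of -0.70 (SE 0.13, adjusted p = 0.0164). TMEM45A was at 10.4, 14.7 and 24.2 CPM in CHT and at 6.77, 8.08 and 8.86 CPM in IR/CHT, with a log2 fold change of -1.03 (SE 0.19, adjusted p = 0.0194). Neither gene overlapped between the groups. PDE4B, a phosphodiesterase that breaks down cyclic AMP, was at 30.8, 40.2 and 59.2 CPM in CHT and at 20.07, 22.93 and 29.02 CPM in IR/CHT, and its log2 fold change was -0.82 (SE 0.16, adjusted p = 0.0225).

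LRRTM1, a leucine-rich repeat protein of the cell surface known from synapses, fell most on the log2 scale. It was at low levels throughout, 0.727, 1.17 and 2.90 CPM in CHT and 0, 0.0941 and 0.417 CPM in IR/CHT, where L179 had no read pair. The log2 fold change was -3.23 (SE 0.61, adjusted p = 0.0205). PCDH18, a protocadherin, fell by 0.78 on the log2 scale (SE 0.15, adjusted p = 0.0205), and PAMR1, a secreted peptidase-like protein, fell by 0.64 (SE 0.12, adjusted p = 0.0225). In each of these, 6 of 7 IR/CHT libraries were below the lowest CHT library.

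THBS1 codes for thrombospondin 1, a matricellular protein known to activate latent TGF-β. It was at 973, 1573 and 1954 CPM in CHT and at 508, 799 and 1322 CPM in IR/CHT, and the groups overlapped, with 5 of 7 IR/CHT libraries below the lowest CHT library. Its log2 fold change was -0.87 (SE 0.18, adjusted p = 0.0286). NCAM1, the neural cell adhesion molecule, was at 303.9, 406.1 and 578.9 CPM in CHT and at 219.7, 268.6 and 317.1 CPM in IR/CHT, with a log2 fold change of -0.62 (SE 0.12, adjusted p = 0.0285). The remaining genes that fell with a symbol were CCDC80, KCTD8, CEP126, PCNX2, DLG2, CYP39A1, SRPX2 and PTPRD, with log2 fold changes from -1.32 for CEP126 to -0.60 for PCNX2. CYP39A1 is a hydroxylase of oxysterols, KCTD8 a partner of GABA-B receptors and DLG2 a scaffold of membrane proteins.

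**Figure D1:**
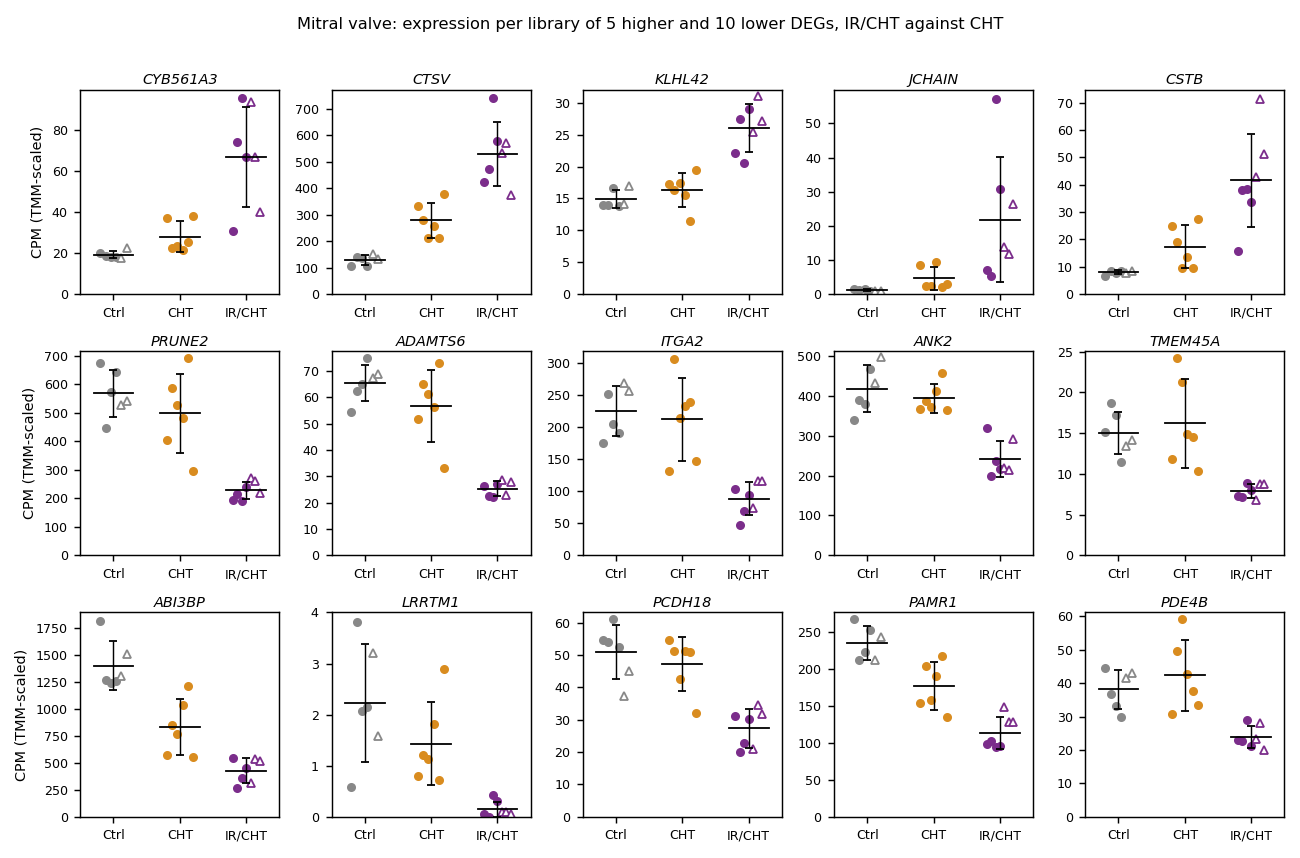
CPM (y axis, linear from 0) of 5 genes that rose and 10 that fell, in each Ctrl, CHT and IR/CHT mitral valve library. Filled circles are plate 1 and open triangles plate 2 libraries, and bars give the mean ± SD. PRUNE2, ADAMTS6 and ITGA2 sit lower in all 7 IR/CHT libraries than in any CHT library, and CTSV and CSTB step up from Ctrl to CHT and again to IR/CHT.

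Of the 15322 genes, 53 had no overlap between the 6 CHT and the 7 IR/CHT libraries (0.346%), and 10 of these were DEGs. At an unadjusted p under 0.05, 937 genes were higher (6.12%) and 1070 lower (6.98%) on IR/CHT, and the median log2 difference of all tested genes was 0.01. The call of a given gene depended on the libraries. The number of DEGs was 6, 7, 10, 11, 12 and 13 without CHT L170, CHT L229, CHT L245, CHT L187, IR/CHT L237 and IR/CHT L258, against 111 (0.717% of the genes tested) without CHT L266, 61 higher and 98 lower (1.03%) without CHT L157 and 84 higher and 102 lower (1.22%) without IR/CHT L175. DESeq2 gave 138 DEGs, the plate as a covariate 17, no filter on low counts 17, and a model of the 13 libraries alone 1, which was ADAMTS6. On plate 1 alone, with 6 CHT and 4 IR/CHT libraries, edgeR gave 0 DEGs (1246 genes at an unadjusted p under 0.05), and all 29 kept their direction. Adjusted p-values of the 29 genes on plate 1 ran from 0.110 to 0.506, while their log2 fold changes reached at least 0.75 of the reported size in 28 of 29. The exception was CSTB, with a log2 fold change of 0.86 (SE 0.31, adjusted p = 0.506) on plate 1, and its 3 plate 2 libraries, at 43.0, 51.1 and 71.6 CPM, were the highest of IR/CHT. PRUNE2 had a log2 fold change of -1.24 (SE 0.21) on plate 1.

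**Figure D2:**
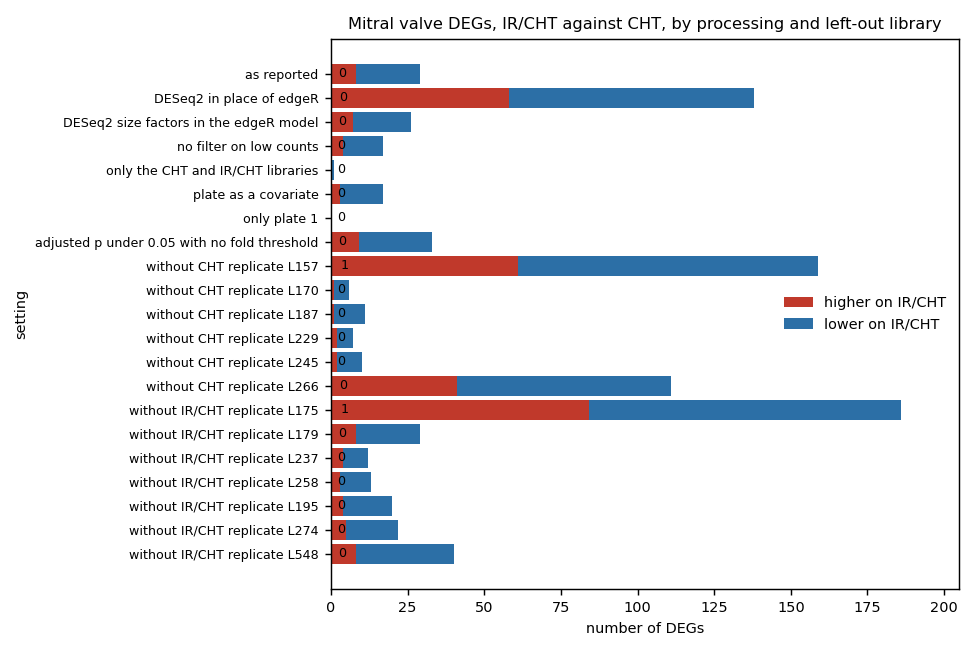
Number of DEGs (x axis, from 0; red higher and blue lower on IR/CHT) in IR/CHT against CHT as reported, under each other way of processing, and without each library in turn (y axis). The 29 DEGs (0.189% of the genes tested) became 1.22% without IR/CHT L175 and 6 genes without CHT L170. The length of a bar gives the count, whereas the number printed at it is the percent of genes tested, cut to a whole number.

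The same genes were set beside the effect of the diet alone, with the caution that the comparisons share the CHT libraries. Of the 8 genes that rose on IR/CHT, 6 had also risen on CHT against Ctrl, where 4.98% of the genes rose, and their log2 differences from Ctrl on CHT ran from 0.13 for KLHL42 to 2.59 for ENSOCUG00000026197. CTSV had a mean of 128 ± 19.5 CPM in Ctrl (SD, n = 6), 278.2 ± 66.4 CPM in CHT (SD, n = 6) and 528 ± 121 CPM in IR/CHT (SD, n = 7). CSTB rose likewise, from 7.88 ± 0.721 CPM in Ctrl (SD, n = 6) to 17.3 ± 7.73 CPM in CHT (SD, n = 6) and 41.7 ± 17.1 CPM in IR/CHT (SD, n = 7). Of the 21 genes that fell, 20 did not pass the test on CHT against Ctrl, where 0.640% of the genes fell, and the exception was ABI3BP (log2 fold change -0.75, adjusted p = 0.0120). ITGA2 was at a mean of 224 ± 38.8 CPM in Ctrl (SD, n = 6), 212 ± 64.3 CPM in CHT (SD, n = 6) and 88.3 ± 25.4 CPM in IR/CHT (SD, n = 7).

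Genes of foam cells and lysosomal lipid handling were the list with the greatest share of small p-values, with 0 DEGs among its 25 tested genes (0.189% of all genes). At an unadjusted p under 0.05, 16 of 25 were higher on IR/CHT and 0 were lower, against 6.12% and 6.98% of all genes, and the median log2 fold change of the list was 0.61. On CHT against Ctrl, 15 of these 25 genes were DEGs, counted in either direction, and the median log2 fold change was 1.65. Over all genes, 4.98% rose and 0.640% fell there. Members of this and other lists that are named below without a call are those with the smallest p-values or well-known members, and they were picked after their values were seen. FABP5, a fatty acid carrier of lipid-laden macrophages, was at 41.6, 94.2 and 168.9 CPM in CHT and at 122, 220.1 and 408 CPM in IR/CHT (log2 fold change 1.16, SE 0.28, adjusted p = 0.0697). LIPA, the lysosomal acid lipase, was at 65.7, 137.7 and 237.9 CPM in CHT and at 161.1, 284.6 and 470.0 CPM in IR/CHT (log2 fold change 0.98, SE 0.26, adjusted p = 0.0985). GPNMB, a glycoprotein of foam cells, was at 192.1, 626.0 and 1560.4 CPM in CHT and at 599, 1959.6 and 2751 CPM in IR/CHT (log2 fold change 1.23, SE 0.35, adjusted p = 0.126). In all of these genes the groups overlapped. The cholesterol export protein of the lysosome NPC2 (log2 fold change 0.69, SE 0.17, adjusted p = 0.0875) and the lipid droplet coat PLIN2 (log2 fold change 0.64, SE 0.17, adjusted p = 0.0965) also missed the threshold.

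Macrophage markers had 0 DEGs of 18 tested genes (0.189% of all genes), 8 at an unadjusted p under 0.05, all higher (6.12% of all genes), and a median log2 fold change of 0.66. All 8 defining macrophage genes were tested, and their summed level was 584 to 915 CPM in CHT and 773 to 1263 CPM in IR/CHT. The mean log2 CPM of the list ranged from 4.90 to 5.99 in CHT and from 5.51 to 6.41 in IR/CHT. Among the CHT libraries it was highest in L266 (5.99) and L157 (5.80), and in IR/CHT it was lowest in L175 (5.51), the 3 libraries whose omission raised the number of DEGs most. The lowest CHT library was L157 or L266 in 20 of the 21 genes that fell, and the highest CHT library was L157 or L266 in 6 of the 8 genes that rose. The part of macrophage content in the DEGs was not tested, and in a bulk valve more cells of a type and more RNA per cell cannot be told apart. CD68, a lysosomal protein of macrophages, was at 55.1, 118.4 and 235.4 CPM in CHT and at 93.5, 314 and 476 CPM in IR/CHT. Its log2 fold change was 1.07 (SE 0.31, adjusted p = 0.133), and it passed the threshold in DESeq2 (adjusted p = 0.0451) and without IR/CHT L175 (adjusted p = 0.0248). CD163, a scavenger receptor of resident macrophages, had a log2 fold change of 0.38 (SE 0.42, adjusted p = 0.727). VSIG4, a complement receptor of macrophages, was at 45.1 to 63.8 CPM in CHT and at 69.4 to 149 CPM in IR/CHT, which did not overlap, with a log2 fold change of 0.90 (SE 0.31, adjusted p = 0.213).

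The other immune lists held 1 DEG, JCHAIN, among 8 tested genes of B and plasma cells, where 0.189% of all genes were DEGs. At an unadjusted p under 0.05, 6 of 15 complement genes, 4 of 8 genes of MHC class II presentation and 6 of 36 genes of the inflammatory response were higher and 0 were lower, with medians of 0.46, 0.62 and 0.49, against 6.12% higher and 6.98% lower over all genes. All 10 tested T and NK cell genes were above zero, 1 of them at an unadjusted p under 0.05, and their median was 0.76. None of the 4 defining T cell markers was among the tested genes. In the interferon response, 2 of 22 genes were higher at that level, near the share over all genes, and the median was 0.36. Chemokines and their receptors had 3 of 16 higher and 1 lower (median 0.18), and neutrophil genes 1 of 5 lower and 0 higher (median -0.20). TNF was between 0.218 and 1.60 CPM in CHT and between 0.227 and 2.66 CPM in IR/CHT (log2 fold change 0.57, SE 0.74, adjusted p = 0.773). IL1B had at most 20 read pairs in any mitral valve library and was not tested, and no gene of the tables carried the symbol IL6 or PF4.

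Among 32 tested proteoglycans, elastic fibre and matricellular genes, THBS1 fell, 10 were lower and 0 higher at an unadjusted p under 0.05, against 6.98% and 6.12% of all genes, and the median log2 fold change was -0.17. DCN, the small proteoglycan decorin that binds collagen, was at 744, 1445 and 2130.0 CPM in CHT and at 609, 787 and 1046 CPM in IR/CHT (log2 fold change -0.85, SE 0.19, adjusted p = 0.0541). OGN (log2 fold change -0.67, SE 0.22, adjusted p = 0.192) and ASPN (log2 fold change -0.96, SE 0.31, adjusted p = 0.178), proteoglycans of the same family, also missed the threshold. In the collagens, 3 of 20 were lower at an unadjusted p under 0.05 and the median was 0.01, which turned negative on plate 1 and without any of several single libraries. COL14A1, a collagen that sits on fibrils, had an adjusted p of 0.0416 at a log2 fold change of -0.46 (SE 0.10). The main fibrillar collagens COL1A1 (log2 fold change 0.31, SE 0.59, adjusted p = 0.853) and COL3A1 (log2 fold change -0.05, SE 0.12, adjusted p = 0.888) differed by less than the spread between libraries, and COL1A1 ranged from 815 to 11344 CPM within IR/CHT.

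In Wnt signaling, 6 of 26 genes were lower and 0 higher at an unadjusted p under 0.05, against 6.98% and 6.12% of all genes (median -0.12). The Wnt antagonist DKK2 was at 10.4, 20.1 and 42.2 CPM in CHT and at 4.01, 6.29 and 16.0 CPM in IR/CHT (log2 fold change -1.39, SE 0.34, adjusted p = 0.0755). DKK1, a related antagonist, was between 0.0725 and 1.02 CPM in CHT and between 0.170 and 2.02 CPM in IR/CHT (log2 fold change 1.21, SE 0.61, adjusted p = 0.403). In TGF-β and BMP signaling, 5 of 28 genes were lower and 2 higher, the activin antagonist FST with the smallest p (log2 fold change -0.98, SE 0.24, adjusted p = 0.0789). Ossification genes were lower in 3 of 15 and higher in 1 of 15. Of 18 fibroblast and valve interstitial markers, 4 were lower and 0 higher (median -0.18), and of 20 valve transcription factors 2 were lower and 0 higher, with MEIS1 nearest to the threshold (log2 fold change -0.61, SE 0.14, adjusted p = 0.0583). TBX20, a transcription factor of valve formation, had a log2 fold change of -0.24 (SE 0.14, adjusted p = 0.482).

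Of 20 tested p53 targets, 6 were higher and 1 lower at an unadjusted p under 0.05, against 6.12% and 6.98% of all genes, and the median was 0.21. None of these, of the DNA repair or of the cell division genes was a DEG, at a share of 0.189% over all genes. ZMAT3, a p53-induced RNA-binding protein, had a log2 fold change of 0.44 (SE 0.13, adjusted p = 0.157), and BAX, which opens the mitochondrial membrane in apoptosis, of 0.85 (SE 0.35, adjusted p = 0.297). CDKN1A, MDM2 and GDF15 were not found by symbol in the tables. In DNA repair, 1 of 25 genes was higher and 1 lower, which is below the background share. In mitosis and cell division, 0 of 28 genes reached an unadjusted p under 0.05, and TOP2A, the topoisomerase of dividing cells, had a log2 fold change of 0.23 (SE 0.33, adjusted p = 0.794). On CHT against Ctrl, 22 of these 28 genes were DEGs, counted in either direction, and the median log2 fold change was 1.62. Over all genes, 4.98% rose and 0.640% fell there. In oxidative stress defense, 7 of 20 genes were higher and 1 lower (median 0.31), including heme oxygenase HMOX1 (log2 fold change 0.93, SE 0.30, adjusted p = 0.179) and catalase CAT (log2 fold change 0.50, SE 0.14, adjusted p = 0.119). DNA replication had 4 of 21 genes higher and 0 lower (median 0.22), and secreted proteins of senescent cells 2 of 13 higher and 0 lower (median 0.27).

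ABCA1, the cholesterol exporter controlled by LXR, was at a mean of 60.8 ± 18.4 CPM in Ctrl (SD, n = 6), 831 ± 180 CPM in CHT (SD, n = 6) and 1050.2 ± 147 CPM in IR/CHT (SD, n = 7). Its log2 fold change on IR/CHT against CHT was 0.34 (SE 0.22, adjusted p = 0.524). Of 19 tested genes of cholesterol synthesis and uptake, 14 were DEGs on CHT against Ctrl, counted in either direction, with a median log2 fold change of -1.11. Over all genes, 4.98% rose and 0.640% fell there. On IR/CHT against CHT, where 0.189% of all genes were DEGs, 0 of the 19 were DEGs. Only 1 of them was lower at an unadjusted p under 0.05 (6.98% of all genes). Of 5 LXR targets, 2 were higher at that level (median 0.34), against 6.12% of all genes.

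**Figure D3:**
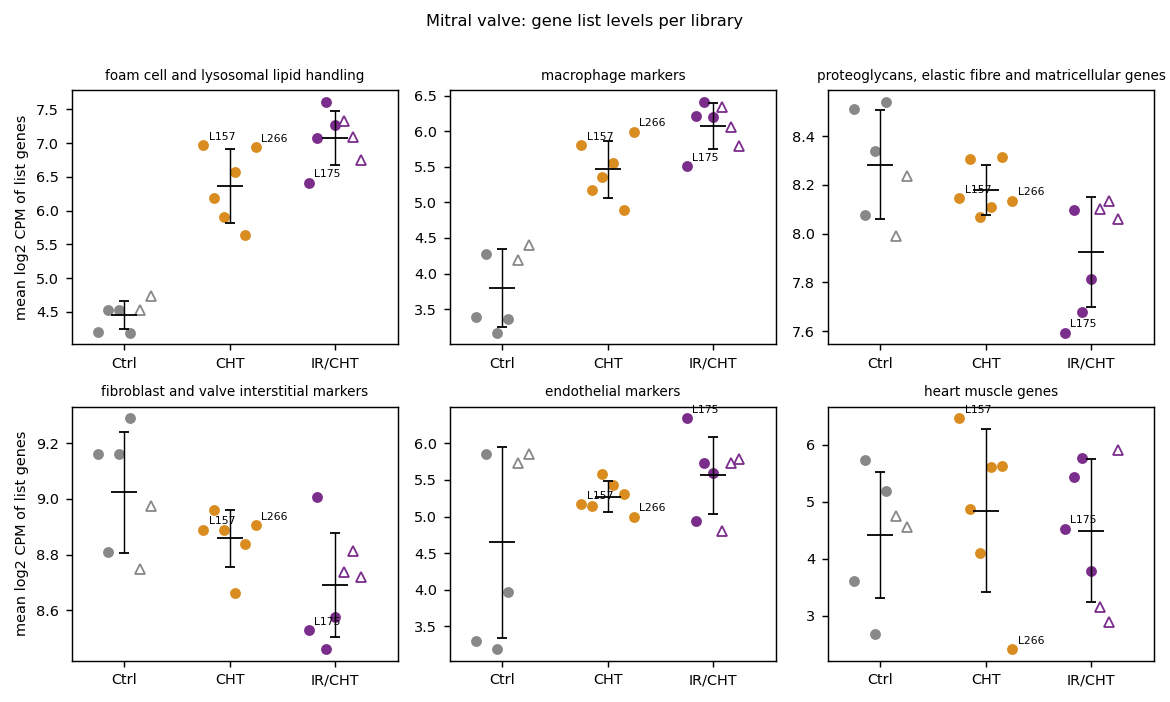
Mean log2 CPM (y axis) of 6 gene lists in each Ctrl, CHT and IR/CHT mitral valve library. Filled circles are plate 1 and open triangles plate 2 libraries, bars give the mean ± SD, and CHT L157, CHT L266 and IR/CHT L175 are marked. Macrophage markers run from 4.90 to 5.99 in CHT and from 5.51 to 6.41 in IR/CHT, and heart muscle genes spread widely in both groups.

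Markers of other tissue in the sample held 1 DEG, NCAM1 of the Schwann cell and melanocyte list, where 0.189% of all genes were DEGs. The counts at an unadjusted p under 0.05 that follow are to be read against 6.12% of all genes higher and 6.98% lower. Heart muscle genes had a mean log2 CPM between 2.41 and 6.46 in CHT and between 2.90 and 5.90 in IR/CHT, 0 of 22 were DEGs, and their median log2 fold change of -0.33 was 0.00 without CHT L157. MYH7, the β-myosin heavy chain of heart muscle, had a log2 fold change of -0.51 (SE 0.75, adjusted p = 0.806), and reads of its close copy MYH6, which was not tested, could have been counted on it. Endothelial markers were above zero in 18 of 20 genes with a median of 0.48, although 0 reached an unadjusted p under 0.05, and PECAM1 had a log2 fold change of 0.59 (SE 0.72, adjusted p = 0.75). Of 16 smooth muscle and myofibroblast genes, 1 was lower at that level, and ACTA2, the smooth muscle actin, had a log2 fold change of -0.27 (SE 0.32, adjusted p = 0.738). Of 9 adipocyte genes, 2 were lower, with a median of -1.03 that came to -0.09 without CHT L157. Schwann cell and melanocyte markers had a median of -0.67, with 2 of 10 higher and 3 lower at that level. Platelet genes (median 0.30) and mast cell markers (median 0.12) had 0 genes at an unadjusted p under 0.05, and red blood cell genes had 1 of 5 higher and 1 lower (median -0.98). Matrix proteases and their inhibitors had 6 of 23 higher and 1 lower (median 0.17). Guidance cues had 4 of 36 higher (11.1%) and 5 lower (13.9%), with a median of 0.04. Hypoxia and glycolysis had 2 of 19 higher (10.5%) and 4 lower (21.1%), with a median of -0.05. Respiratory chain subunits had 1 of 20 higher and 0 lower (median 0.05), and immediate early and heat shock genes 1 of 19 lower and 0 higher (median -0.06).

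The irradiation response was next compared with the aortic valve of the same rabbits, at which the beam was aimed. All 29 DEGs of the mitral valve had the same sign in the aortic valve, and 27 of 29 were DEGs there, where 10.3% of the 16166 genes tested rose and 12.3% fell. The valves come from the same 13 rabbits, so the aortic valve is not an independent set of animals. The median log2 fold change of the 8 genes that rose was 1.26 in the mitral and 1.90 in the aortic valve, and that of the 21 genes that fell was -0.96 and -1.57. The size was larger in the aortic valve in 27 of 29 genes, and the exceptions were THBS1 and PDE4B. THBS1 had a log2 fold change of -0.24 (SE 0.19, adjusted p = 0.380) in the aortic valve, and its difference between the valves was not significant (adjusted p = 0.281). In 4 of the 29 genes, against 2.02% of all genes, the test of the interaction found a stronger fall in the aortic valve: ANK2 (difference 1.10, SE 0.27, adjusted p = 0.0162), NCAM1 (0.79, SE 0.19, adjusted p = 0.0142), PCNX2 (0.92, SE 0.21, adjusted p = 0.00962) and DLG2 (1.57, SE 0.38, adjusted p = 0.0169), given on the log2 scale as mitral minus aortic. With the rabbit as a block, where 10.4% of all genes differed, 13 of the 21 genes that fell and 3 of the 8 that rose did so, each with the larger size in the aortic valve, among them PRUNE2 (0.80, SE 0.20, adjusted p = 0.00747), ADAMTS6 (0.67, SE 0.16, adjusted p = 0.00583) and CTSV (-0.94, SE 0.26, adjusted p = 0.0197). THBS1 did not pass in that model either (adjusted p = 0.135).

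Over all genes, the irradiation response differed between the mitral and the aortic valve in 327 of 16166 genes (2.02%). The log2 fold change was higher in the mitral valve in 293 and lower in 34, and in all 327 the size was larger in the aortic valve. With the rabbit as a block, 1675 genes differed, 1231 and 444 in these directions, and with DESeq2's size factors 250, of which 51 were lower in the mitral valve. The count was 19 in a model of the CHT and IR/CHT libraries alone, and against 2.02% it was 0.874%, 1.22%, 1.16%, 0.863% and 1.13% of the genes without CHT L157, CHT L170, CHT L229, CHT L266 and IR/CHT L175. CNGA2, a channel gated by cyclic nucleotides, fell in the aortic valve by 3.08 (SE 0.27) and had a log2 fold change of -0.79 (SE 0.19, adjusted p = 0.0755) in the mitral valve. The difference, from the model of both valves, was 2.32 (SE 0.37, adjusted p = 4.03e-04). Its mitral levels of 8.14, 10.0 and 14.6 CPM in CHT and of 3.33, 5.78 and 8.63 CPM in IR/CHT overlapped. PDE3A, a phosphodiesterase of the heart and vessels, had -1.27 (SE 0.12) in the aortic and -0.24 (SE 0.11) in the mitral valve.

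In the opposite direction, TIMP1, an inhibitor of matrix metalloproteases, rose by 1.96 (SE 0.18) on the log2 scale among aortic samples. In the mitral valve its log2 fold change was 0.45 (SE 0.13, adjusted p = 0.119), although the levels of 87.3 to 112 CPM in CHT and 119.2 to 185.2 CPM in IR/CHT did not overlap. The difference of -1.48 (SE 0.24) had an adjusted p of 5.99e-04. EMILIN2, an elastin-associated glycoprotein, had a log2 fold change of 1.92 (SE 0.25) in the aortic and 0.43 (SE 0.18) in the mitral valve. TMEM132B had 2.48 (SE 0.53) in the aortic and -1.27 (SE 0.44) in the mitral valve, at a level of at most 1.25 CPM in any CHT or IR/CHT mitral valve library.

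Among the lists, the interaction, called in 2.02% of all genes, was found in 3 of 20 valve transcription factors (TBX20, MEIS2 and HAND2), each with a higher log2 fold change in the mitral valve. As many genes were higher in Wnt signaling (3 of 26) and the guidance cues (3 of 36), and 2 of 18 fibroblast and valve interstitial markers and 2 of 28 genes of TGF-β and BMP signaling were too. Matrix proteases and their inhibitors had 1 of 23 higher and 2 lower. TBX20 fell by 1.59 on the log2 scale in the aortic valve (SE 0.19, adjusted p = 1.68e-08), and the difference was 1.37 (SE 0.27, adjusted p = 0.00374). HAND2 had a log2 fold change of 0.35 (SE 0.21, adjusted p = 0.483) in the mitral and of -0.68 (SE 0.21, adjusted p = 0.0105) in the aortic valve. In the interferon response, 3 of 22 genes (RSAD2, ISG15 and IFIT3) responded less in the mitral valve, and in foam cells and lysosomal lipid handling 2 of 25 (PLIN2 and CD36) did. Macrophage markers had an interaction in 0 of 18 genes without the rabbit in the model and in 1 of 18 with the rabbit as a block, the scavenger receptor MSR1 (difference -1.26, SE 0.31, adjusted p = 0.00729). Their median log2 fold change was 0.66 in the mitral and 1.41 in the aortic valve. With the rabbit as a block, where 10.4% of all genes differed, the interaction was found in 11 of 20 valve transcription factors and 12 of 26 Wnt signaling genes, all higher in the mitral valve, and in 8 of 22 interferon and 7 of 25 foam cell genes, all lower. In the same model, 8 of 18 fibroblast and valve interstitial markers were higher in the mitral valve and 0 lower, and their part in the result was not tested. TGF-β and BMP signaling had 8 of 28 higher and 1 lower, and guidance cues 11 of 36 higher and 1 lower. Matrix proteases and their inhibitors had 2 of 23 higher and 4 lower, and collagens 5 of 20 higher and 3 lower. Proteoglycans, elastic fibre and matricellular genes had 8 of 32 higher and 1 lower. Complement and ossification each had 4 of 15 higher and 0 lower. Oxidative stress defense had 1 of 20 higher and 5 lower, p53 targets 0 of 20 higher and 4 lower, and hypoxia and glycolysis 0 of 19 higher and 5 lower. CD36 missed the threshold in that model (adjusted p = 0.0579), and PLIN2, TBX20, MEIS2, HAND2, RSAD2, ISG15 and IFIT3 passed it. In the aortic valve, 13 of these 18 macrophage genes and 20 of the 25 foam cell genes were DEGs, all higher on IR/CHT, against 10.3% of all genes.

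**Figure D4:**
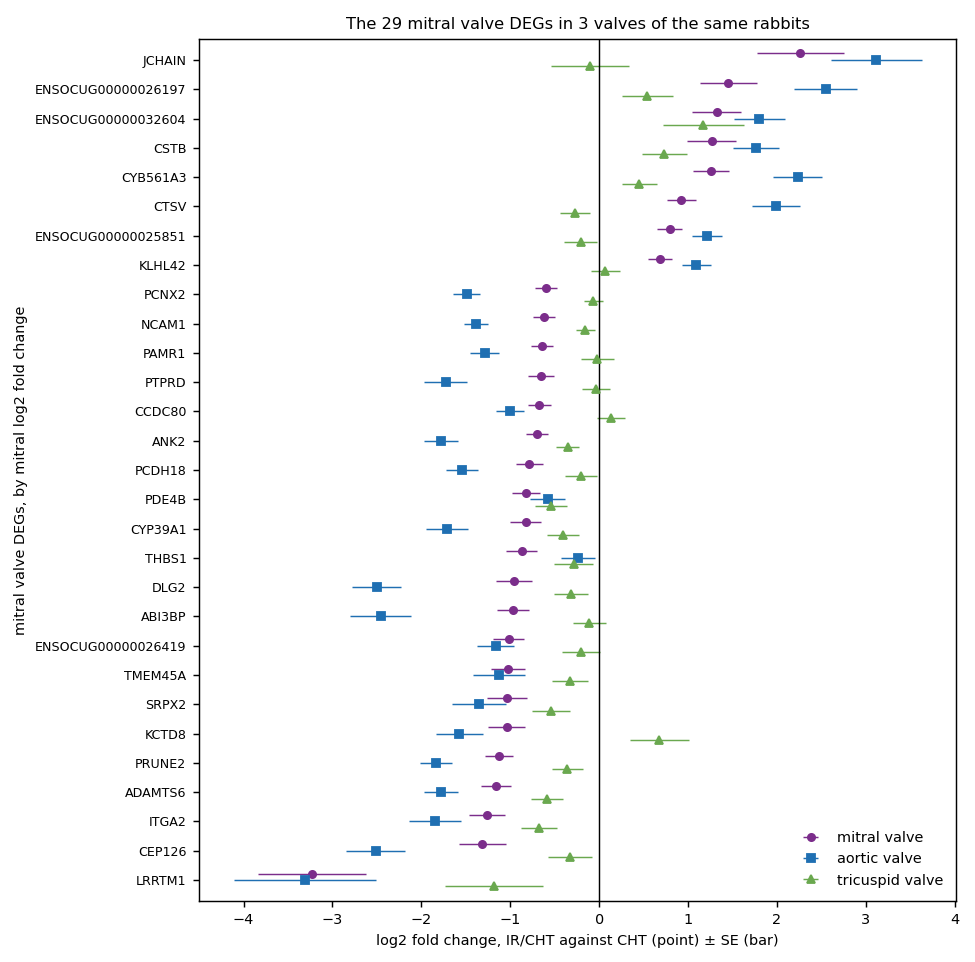
Log2 fold change on IR/CHT against CHT (x axis, point ± SE) of the 29 mitral valve DEGs (y axis) in the mitral, aortic and tricuspid valve. All 29 have the same sign in the mitral and aortic valve, 27 are larger in the aortic valve, and none is larger in the tricuspid valve than in the mitral valve.

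The tricuspid valve, the other valve between atrium and ventricle, had 0 DEGs on IR/CHT against CHT (0% of 15890 genes). Of the 29 mitral valve DEGs, 24 had the same sign there and 0 were larger, with medians of 0.26 for the 8 genes that rose and of -0.32 for the 21 that fell. These genes were chosen by their mitral values, so that smaller values elsewhere are no test. The test of the interaction between the mitral and the tricuspid valve by edgeR found 0 genes (0%), with 852 at an unadjusted p under 0.05, and 0 genes with the rabbit as a block (1575 at an unadjusted p under 0.05). Over all 15890 genes, the smallest adjusted p was that of CTSV (0.0822), whose log2 fold change was -0.27 (SE 0.17) in the tricuspid valve, a difference of 1.22 (SE 0.24). A difference of response between these valves was thus not detectable here, which does not show that they responded alike. JCHAIN had a log2 fold change of -0.10 (SE 0.44) in the tricuspid valve, a difference of 2.39 (SE 0.62, adjusted p = 0.732).

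**Figure D5:**
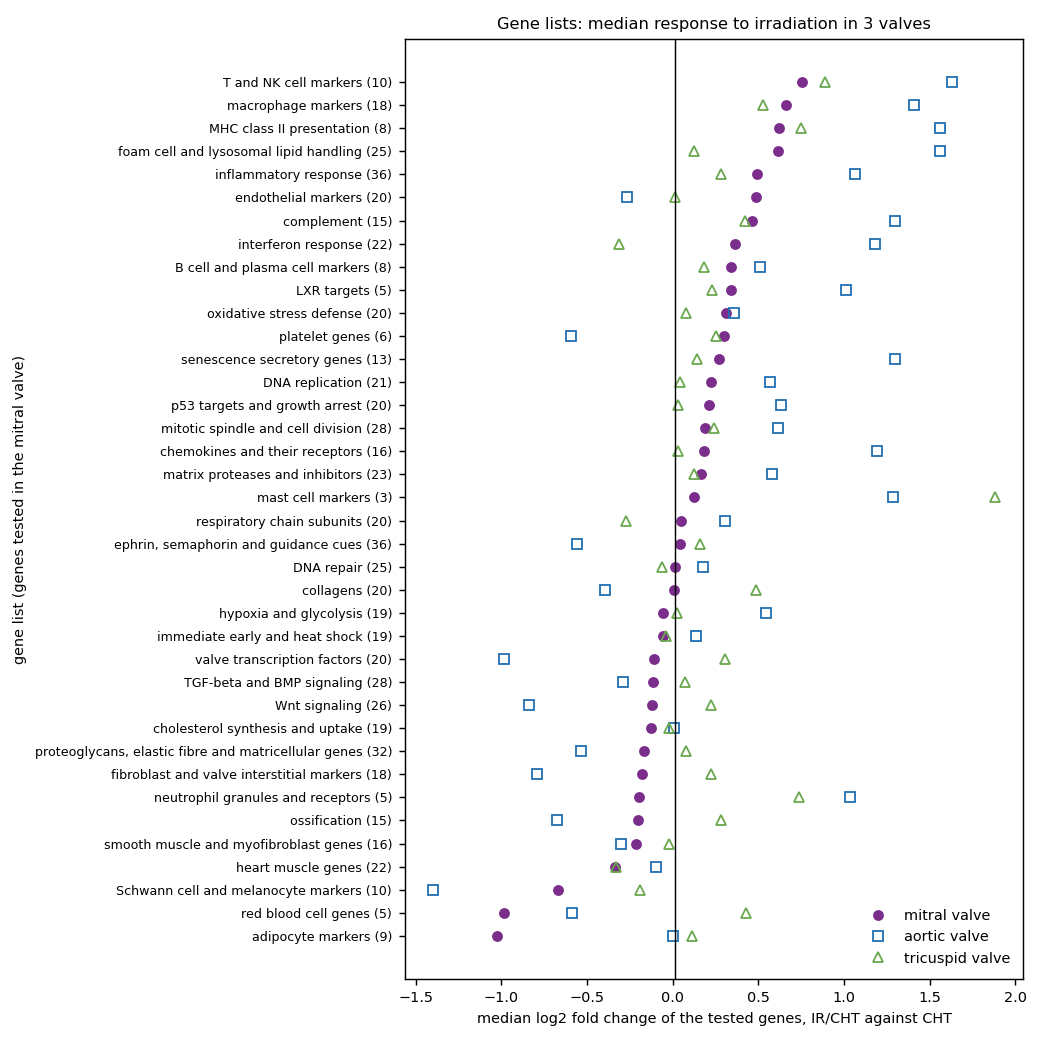
Median log2 fold change on IR/CHT against CHT (x axis) of 38 gene lists (y axis, each with its count of tested genes) for the 3 valves, and the mitral median of all genes (vertical line). Foam cell genes have medians of 0.61, 1.56 and 0.12 and proteoglycan, elastic fibre and matricellular genes of -0.17, -0.53 and 0.08 in the mitral, aortic and tricuspid valve.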

How the data were processed

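The authors prepared stranded total RNA libraries from 10 ng of RNA, mapped the reads to OryCun2.0 and counted them on Ensembl genes using the pipeline nf-core/rnaseq. The deposited values are counts of read pairs per gene, with no normalization and no pooling, in 1 table for each plate. Samples were assigned to groups by their labels and to rabbits by the number that begins each column name. Of 29587 genes, 14716 carry a symbol, and genes were found by symbol. Some symbols (42) stand on more than 1 gene.

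Counts were analysed in R 4.3.3 with edgeR 4.0.16. After filterByExpr took out genes of low count and TMM factors were computed, 1 robust quasi-likelihood model of the 4 mitral valve groups was fitted without covariates. The test was two-sided, p-values were adjusted over all tested genes by Benjamini-Hochberg, and the SE is the log2 fold change over the root of the F statistic. Levels (CPM) are counts scaled to a common size of the TMM-adjusted libraries. Interactions were tested with both valves in 1 model and called at an adjusted p under 0.05 alone, and values of the aortic and tricuspid valve come from these models. Same-rabbit deviations of mitral and aortic valve from their group means had a median correlation of 0.562 (lowest 0.249, over 0.1 in 13 of 13 rabbits), against -0.027 between rabbits, and those of mitral and tricuspid valve of 0.353 (over 0.1 in 8 of 13). The interaction results are from models without the rabbit. Since valves came from the same animals, results with the rabbit as a block are given beside them for the genes and lists named with that model. Lists not named with that model can differ in it too. All replicate pairs differed beyond counting error. Each library of a group is another rabbit, and p-values of comparisons within a valve measure the spread between these animals. The interaction models without the rabbit treat the valves of a rabbit as independent, so their p-values leave the pairing out.

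Genes were named by rule: in each direction the 10 symbol-bearing DEGs of smallest p (5 rose and 10 of 20 fell), up to 3 DEGs per list, 3 interaction genes in each direction, and a set of 20 chosen genes given whatever their result. Some genes that these rules reach are not reported here. The other DEGs and the genes of lists without a call were named after their values were seen. The 38 gene lists were written from general knowledge. The members and lists were chosen with earlier results of these data known. A list is described by counts, its median and its mean log2 CPM (prior count 2). The code was tested on simulated data. Alternatives were DESeq2 1.42.0, its size factors, no filter, the 13 libraries alone, the plate as a covariate, plate 1 alone, no fold threshold, the rabbit as a block, a prior count of 0.5 and leaving out each library. The plate and size factor alternatives of the lists were added after the data were seen. No genome of the files' build was used, so no coordinates or sequences are given.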

Additional observations from a re-analysis of the deposited data

Results flagged for a closer look

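Dixon's test at the 95% level, applied to 84 pairs of a gene and a group, singled out 4 values, and chance alone singles out about 1 in 20 groups. TOP2A was lowest in CHT L245 at 12.9 CPM. MYH7 was highest in CHT L157 at 3140.0 CPM. KCTD8 was highest in IR/CHT L179 at 9.53 CPM and CEP126 in IR/CHT L175 at 5.79 CPM, which placed each nearer to the CHT libraries than the other IR/CHT libraries were.

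A test of the interaction put the irradiation response of several named genes apart between the mitral and the aortic valve. Of these, 5 were flagged, and others, among them ANK2, NCAM1, PCNX2, DLG2 and TBX20, are given above. The differences of the log2 fold changes, mitral minus aortic, were 2.32 for CNGA2, 1.05 for PDE3A, -1.48 for TIMP1, -3.73 for TMEM132B and -1.47 for EMILIN2.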

How the results depend on the processing

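The 29 DEGs (0.189% of the genes tested) kept their direction under every alternative that was run, but their number did not hold: 138 (0.548%) with DESeq2, 28 of the 29 among them, 17 (0.0675%) without the filter, 17 (0.111%) with the plate as a covariate, 15 of the 29 among them, 1 (0.00691%) with the 13 libraries alone, 0 (0%) on plate 1, and 0.0387% to 1.22% when 1 library was left out. With DESeq2's size factors it was 26. The cause was not tested, except that plate 1 alone holds fewer IR/CHT libraries. CHT is held only in plate 1, so that the plate and the group cannot be fully told apart. The series of rabbit numbers, L09 in CHT and L28 in IR/CHT, follows the group completely. No alternative that was run can separate it from irradiation. Genes differing between mitral and aortic valve numbered 1675 (10.4%) with the rabbit as a block, 323 of the 327 among them, 19 (0.124%) with the CHT and IR/CHT libraries alone, and came to 0.863% to 2.63% when 1 mitral library was left out. Between mitral and tricuspid valve, 1 gene (0.00629%) differed with the plate as a covariate, and 0% to 0.00623% when 1 library was left out. The rabbit block left that count at 0. Of the log2 fold changes of named genes, 3 turned their sign, none of them called: TNF to -0.12 with the plate as a covariate, COL1A1, which ran from -0.31 without IR/CHT L179 to 0.68 without CHT L266, and MYH7, which ran from -0.84 without IR/CHT L237 to 0.22 without CHT L157. Of the medians of the lists, ossification moved to -0.33 without IR/CHT L274 and adipocyte markers to -0.09 without CHT L157. DESeq2's size factors changed the sign of 0 of 38 medians, the plate as a covariate of 1 (DNA repair), plate 1 alone of 1 (collagens), and leaving out 1 library of 1 to 5, with 5 without IR/CHT L175 (collagens, DNA repair, immediate early and heat shock, mast cell and platelet genes). No fit with the rabbit as a block was possible within the mitral valve, where each rabbit gave 1 library.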
